A study of Mus musculus with 2 samples.

Results

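Erythroid maturation genes are a set of 8 genes that developing red cells use to build hemoglobin and the red cell membrane, and 7 of them were analysed among 43346 mouse genes in the deposited tables. The members were Alas2, Klf1, Gata1, Slc4a1, Epor, Epb42 and Tfrc, taken by symbol and Ensembl identifier, and 1 listed gene is not analysed here. The libraries were made from total RNA of the neural tube, the embryonic structure that forms brain and spinal cord, of mouse embryos of the B6NCrl strain at embryonic day 12.5. The labels give 1 group of 2 biological replicates, with no treatment, mutation or second tissue. Replicate 1 pooled 120 embryos and replicate 2 pooled 88, of both sexes and with the same donor identifier. Depth over mouse genes was 31610805 expected counts for replicate 1 and 33530172 for replicate 2, an expected count being an estimated number of reads. Levels are TPM, an abundance corrected for transcript length and depth, and are given as mean ± SD (n = 2). Of 8 neural tube marker genes, 8 reached 1 TPM in both libraries, with means from 2.50 TPM (Olig2) to 1017 TPM (Tubb3). Endothelial markers also reached it for 8 of 8, so this count alone does not identify the tissue.

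Red cells mature through a cascade in which the transcription factors Gata1 and Klf1 switch on genes of heme synthesis, globin and the cell membrane. Erythropoietin, acting through its receptor Epor, keeps committed precursors alive, and Tfrc brings in iron bound to transferrin. Alas2 makes the first committed intermediate of heme from that stage on, and Slc4a1 (band 3) and Epb42, a transglutaminase relative without enzyme activity, tie the membrane to its skeleton. In the mouse embryo the first red cells are primitive, nucleated cells that arise in the yolk sac and circulate. In bulk RNA, fewer cells of a type and less RNA per cell cannot be told apart.

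The messages of 2 members carry a hairpin that binds iron regulatory proteins, known as the iron-responsive element. In Alas2 it lies before the coding sequence, where binding holds back translation, and in Tfrc it lies after it, where binding protects the message. The GENCODE M21 transcripts were searched for a C, 5 bases, the loop CAGTGN and 5 bases that pair with the first 5 (G and T pairs allowed). The pattern was found in 1.34% of 21877 protein-coding genes and in 2 of the 7 members. The matches are shown because the share of each message that holds them was measured below. Capitals mark the 6 loop bases, on build GRCm38 and the plus strand.
Alas2 (chrX:150547459-150547485): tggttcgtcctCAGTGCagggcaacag
Tfrc (chr16:32631220-32631246): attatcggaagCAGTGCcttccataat
Tfrc (chr16:32631599-32631625): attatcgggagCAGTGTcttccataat
Tfrc (chr16:32631664-32631690): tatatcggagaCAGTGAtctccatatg
Tfrc (chr16:32631711-32631737): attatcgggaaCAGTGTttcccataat
The 1 site of Alas2 lies in the 5′ UTR of both coding transcripts, and the 4 sites of Tfrc lie in the 3′ UTR of its leading transcript. In the list of iron uptake and storage genes the same pattern was found in the 5′ UTR of the ferritin genes Fth1 and Ftl1 and of the iron exporter Slc40a1.

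The DNA upstream of 4 members is shown because 3 of them (Alas2, Klf1 and Epor) hold a box of the kind that Gata1 binds and Tfrc holds none. Windows of RefSeq (GRCm38.p6), 250 bases before a gene's start, were matched for 6 of the 7 genes, all but Slc4a1. GATA boxes (AGATAA or TGATAA) and CACCC boxes (CCNCNCCC), the kinds of site that Gata1 and Klf1 are known to bind, were searched on both strands and stand in capitals. Bases inside annotated exons are left out.
Alas2 (chrX:150547167-150547374, plus strand): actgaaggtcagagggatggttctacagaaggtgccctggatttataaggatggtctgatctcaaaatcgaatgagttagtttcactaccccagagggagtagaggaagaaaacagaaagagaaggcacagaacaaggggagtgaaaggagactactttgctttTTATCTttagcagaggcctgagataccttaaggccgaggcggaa
Klf1 (chr8:84901732-84901927, plus strand): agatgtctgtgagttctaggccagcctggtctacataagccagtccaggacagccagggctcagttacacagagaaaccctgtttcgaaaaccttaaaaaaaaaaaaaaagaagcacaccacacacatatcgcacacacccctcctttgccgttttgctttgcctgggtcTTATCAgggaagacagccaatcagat
Epor (chr9:21963577-21963826, minus strand): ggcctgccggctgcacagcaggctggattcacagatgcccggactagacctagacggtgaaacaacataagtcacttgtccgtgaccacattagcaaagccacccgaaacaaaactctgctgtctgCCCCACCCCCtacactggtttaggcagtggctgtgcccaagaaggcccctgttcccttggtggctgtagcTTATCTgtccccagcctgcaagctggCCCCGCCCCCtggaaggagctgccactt
Tfrc (chr16:32608646-32608895, plus strand): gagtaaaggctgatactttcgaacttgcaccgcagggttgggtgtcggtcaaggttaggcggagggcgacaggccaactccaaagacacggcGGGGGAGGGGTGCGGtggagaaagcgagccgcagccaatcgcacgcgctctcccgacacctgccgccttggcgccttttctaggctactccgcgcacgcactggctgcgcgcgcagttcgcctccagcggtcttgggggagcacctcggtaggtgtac
A GATA box was present in 4 of 6 windows (Alas2, Klf1, Epor and Epb42), against 16.6% of 32851 windows of all genes. The window of Gata1, not printed, held none, like that of Tfrc. The GATA box began 86 bases before the RefSeq start in Alas2, 80 in Klf1, 54 in Epor and 226 in Epb42. In Epb42, however, the annotated transcript Epb42-202 starts 195 bases before the RefSeq start. Only 55 bases of the Epb42 window, which hold the box, lie outside annotated exons. A CACCC box was present in 4 of 6 windows (Alas2, Gata1, Epor and Tfrc), against 45.9% of all windows, and those of Alas2 lie in the part left out. No GATA box overlapped a CACCC box in the printed stretches. G and C made up 64.8% of the Tfrc window, the most of the 6, and 43.2% of the Epb42 window, the least, against a median of 52.4% over all windows. Klf1 and Tfrc also held a CCAAT box (CCAAT, found in 33.8% of all windows), 64 and 124 bases before the start. These matches describe the letters only.

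All 7 members reached 1 TPM in both libraries, with 3 above 15 TPM and 4 below 5 TPM. The iron carrier receptor, the heme enzyme and band 3 stood between 15.5 and 40.2 TPM in single libraries, and the transcription factors, the erythropoietin receptor and Epb42 between 1.00 and 3.27 TPM. The median member stood at 3.02 ± 0.354 TPM, below the median of 16.8 TPM over the 15735 genes that averaged 1 TPM or more.

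**Figure D1:**
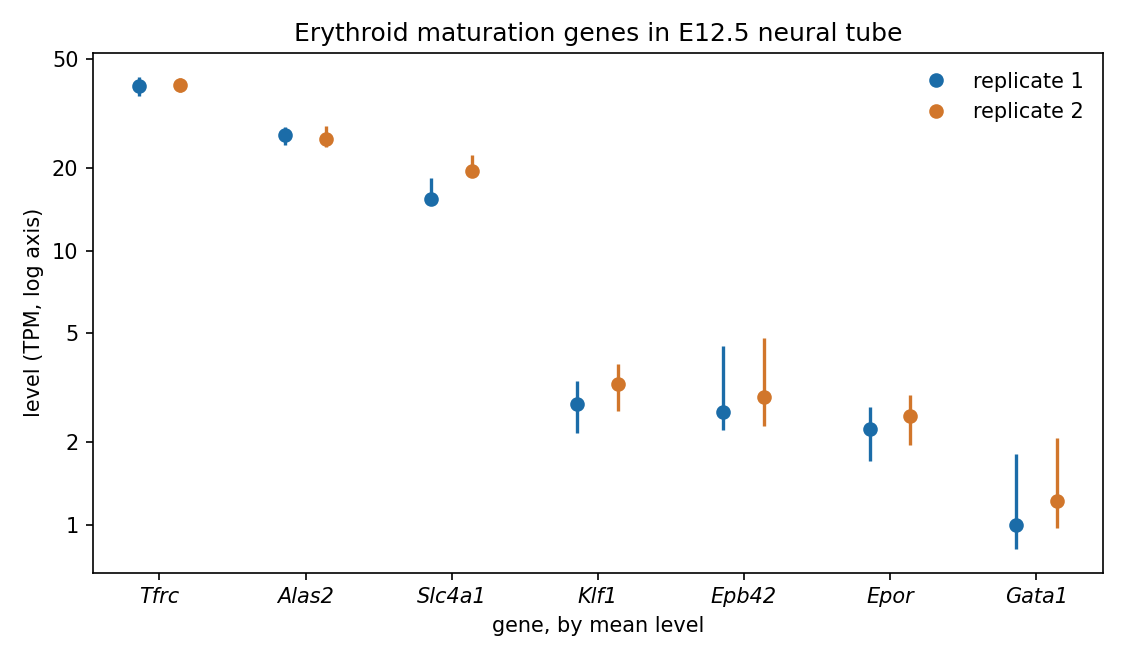
Level of each member in TPM on a log axis, for replicate 1 (left of each pair) and replicate 2. Points are the deposited TPM and vertical lines the deposited TPM bounds of each library. Tfrc, Alas2 and Slc4a1 lie above 15 TPM and the other 4 below 5 TPM.

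Among the regulators, Klf1, a zinc finger activator of late erythroid genes (ENSMUSG00000054191, chromosome 8, 84901928 to 84905291), stood at 2.77 TPM in replicate 1 and 3.27 in replicate 2. These values rest on 79 and 97 expected counts. Gata1, the zinc finger factor that directs red cell and platelet lineages (ENSMUSG00000031162, chromosome X, 7959260 to 7978071), had 1.00 and 1.22 TPM. It was the lowest member, on 36 and 42 counts. By exact binomial intervals, which cover counting error only, its 1.14 CPM (counts scaled to the library total) in replicate 1 could lie between 0.798 and 1.58, and its 1.25 CPM in replicate 2 between 0.903 and 1.69. Klf1 stood at 2.77 times the TPM of Gata1 in replicate 1 and 2.68 times in replicate 2. The closeness of these 2 ratios does not measure their counting error. By the posterior mean, a second deposited estimate, Gata1 had 1.28 and 1.49 TPM against 2.72 and 3.22 for Klf1. The size of the ratio thus depends on the estimate.

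The receptor for erythropoietin, Epor (ENSMUSG00000006235, chromosome 9, 21958897 to 21963506), stood at 2.24 TPM in replicate 1 and 2.49 in replicate 2, on 77 and 89 counts. The transferrin receptor Tfrc (ENSMUSG00000022797, chromosome 16, 32608920 to 32632794) had 39.85 and 40.19 TPM, on 2980 and 3358 counts. It was the highest member, at the 71.6th percentile of genes averaging 1 TPM or more. Dividing cells of many kinds use Tfrc to take up iron, so it is not particular to red cells.

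Alas2, the erythroid form of aminolevulinate synthase (ENSMUSG00000025270, chromosome X, 150547375 to 150570638), stood at 26.5 TPM in replicate 1 and 25.7 in replicate 2, on 956 and 994 counts. Its exons overlap Apex2 and Mir3620 on the opposite strand, whose reads cannot be told apart from its own without strand, and the sources used here do not give the strand setting. No exon of another gene overlapped the other 6 members.

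Slc4a1, the chloride and bicarbonate exchanger of the red cell membrane (ENSMUSG00000006574, chromosome 11, 102348824 to 102366203), stood at 15.5 TPM in replicate 1 and 19.6 in replicate 2, on 1368 and 1780 counts. Epb42, the protein that binds band 3 to ankyrin (ENSMUSG00000023216, chromosome 2, 121017891 to 121037072), had 2.59 and 2.93 TPM, on 124 and 139 counts. The membrane partners thus differed in gene TPM, with Slc4a1 at 6.32 ± 0.495 times Epb42. Coding transcripts held only 33.2% of Epb42 in replicate 1 and 34.3% in replicate 2, against 100% and 99.1% of Slc4a1. The ratio therefore does not compare coding messages alone.

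In order of mean TPM the members ran Tfrc, Alas2, Slc4a1, Klf1, Epb42, Epor and Gata1. The 2 values of Tfrc, of Alas2 and of Slc4a1 lay apart from those of the next gene, and so did the deposited TPM bounds in both libraries. Klf1 and Epb42 overlapped in their values, and the deposited bounds of Klf1 and Epb42, of Epb42 and Epor, and of Epor and Gata1 overlapped in both libraries. Neighbours in the order below Slc4a1 thus did not differ beyond the deposited bounds.

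The related genes show where the members stand in their own pathways. The lists were chosen with earlier results of these data known, and no list was tested against another.

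Among the erythroid transcription factors and cofactors, 11 of 12 reached 1 TPM in both libraries, and the list median was 3.64 ± 0.0318 TPM. The highest were Ldb1 (119 ± 2.89 TPM), a bridging cofactor of Gata1 complexes, Bcl11a (81.6 ± 2.53 TPM), a repressor of globin genes that neurons also express, and the LIM-only cofactor Lmo2 (37.4 ± 1.07 TPM). Gfi1b, a repressor that acts with Gata1, stood at 0.81 TPM in replicate 1 and 0.84 in replicate 2. Gata2, the related factor of blood progenitors that ventral interneurons also use, stood at 4.75 ± 0.651 TPM, so that Gata1 had 0.192 times its level in replicate 1 and 0.284 times in replicate 2. The Gata1 cofactor Zfpm1 (FOG-1) stood at 1.84 ± 0.0495 TPM.

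Of the other heme synthesis genes, 11 of 11 reached 1 TPM in both libraries, with a list median of 43.8 ± 1.48 TPM. They were led by Tmem14c (125 ± 9.81 TPM), which helps to carry heme precursors in mitochondria, and Urod (72.9 ± 5.18 TPM), an enzyme of the porphyrin ring. Alas1, the form of aminolevulinate synthase found in most cells, stood at 50.3 ± 4.65 TPM. Alas2 had 0.565 times the TPM of Alas1 in replicate 1 and 0.479 times in replicate 2, so that the erythroid form was the lower one in both libraries.

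Among red cell membrane and skeleton genes, 13 of 15 reached 1 TPM in both libraries, with a median of 3.84 ± 0.0424 TPM. Epb41 (141 ± 12.3 TPM), Add2 (54.7 ± 2.13 TPM) and Dmtn (19.1 ± 1.19 TPM), skeleton proteins that neurons also use, were highest. The red cell beta spectrin gene Sptb stood at 2.04 TPM in replicate 1 and 2.44 in replicate 2. The erythroid ankyrin gene Ank1, which joins band 3 to spectrin, had 2.87 and 3.27 TPM. Slc4a1 stood at 5.68 ± 0.416 times the TPM of Ank1. Rhag, a membrane marker of red cells, stood at 2.10 ± 0.212 TPM.

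Erythropoietin itself was listed at 0 counts for Epo in both libraries, and the floor of 3 counts corresponds to 0.0949 CPM in replicate 1 and 0.0895 CPM in replicate 2. Of the 10 genes of erythropoietin signalling, 8 reached 1 TPM in both libraries. They were led by the survival gene Bcl2l1 (125 ± 2.33 TPM), Stat5b (15.3 ± 0.870 TPM) and the receptor's kinase Jak2 (11.9 ± 0.431 TPM), none of them particular to red cells. Epor stood at 0.194 times the TPM of Jak2 in replicate 1 and 0.205 times in replicate 2. Erfe, the erythroid hormone that acts on iron supply, was at 0.21 ± 0.0849 TPM.

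Among iron uptake and storage genes, 11 of 12 reached 1 TPM in both libraries, with a median of 21.4 ± 1.03 TPM. The ferritin chains Ftl1 (4917 ± 202 TPM) and Fth1 (1178 ± 35.4 TPM) and the ferritin receptor Ncoa4 (69.0 ± 0.262 TPM) were highest. Tfr2, the second transferrin receptor, stood at 0.87 TPM in replicate 1 and 0.79 in replicate 2, and Tfrc stood at 48.3 ± 3.58 times its level. Trf, the transferrin that Tfrc binds, had 21.49 and 22.25 TPM, and the endosomal iron reductase Steap3 had 1.83 and 1.17 TPM.

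The globin genes, the main product of these cells, stood far above the members. Their 7 genes summed to 14784 TPM in replicate 1 and 14102 in replicate 2. That sum was 553 ± 5.57 times the TPM of Alas2 and 838 ± 166 times that of Slc4a1. Against the 6 members other than Tfrc together it was 292 times in replicate 1 and 256 times in replicate 2.

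**Figure D2:**
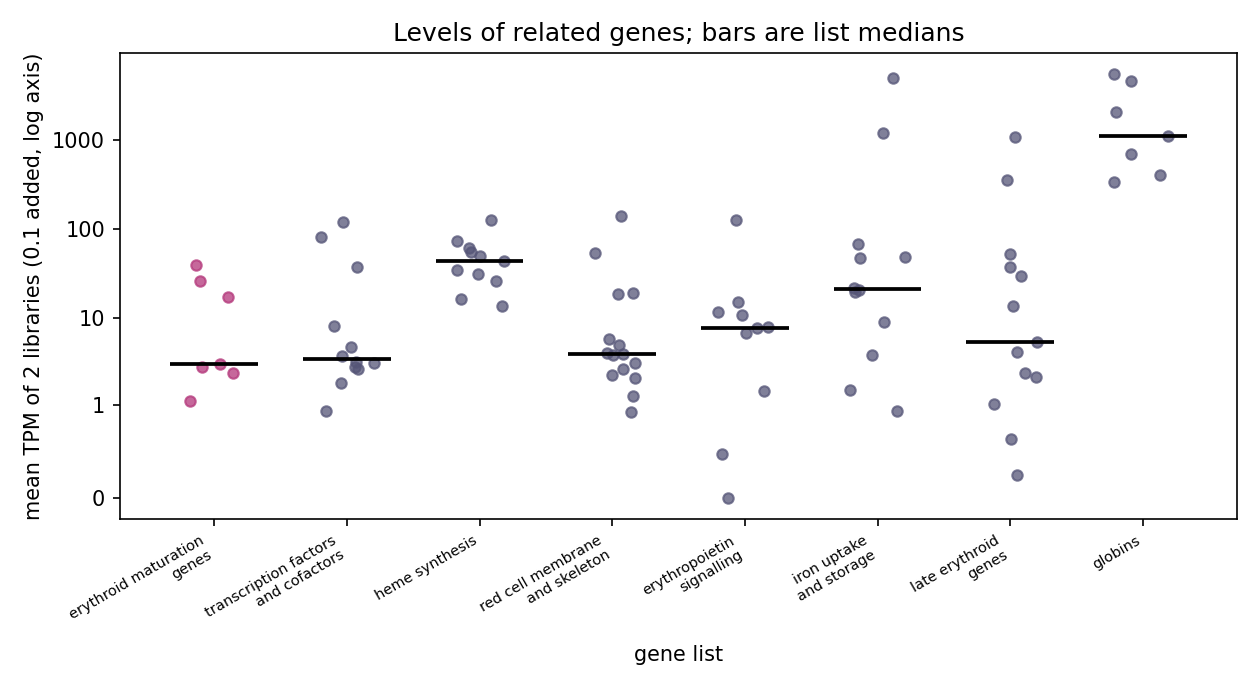
Mean TPM of the 2 libraries for each gene of 8 lists, with 0.1 added and on a log axis. Points are genes and black bars the median of each list's genes. The 7 members at left spread from 1.11 to 40.0 TPM, while all 7 globin genes at right lie above 336 TPM.

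Marker lists of other blood cells, endothelium and fetal liver were read in the same way. Of 8 megakaryocyte and platelet genes, a lineage that shares Gata1, 5 reached 1 TPM in both libraries, and their summed level was 59.9 TPM in replicate 1 and 64.9 in replicate 2. The macrophage list had 7 of 8 and summed levels of 84.6 and 92.0 TPM. Blood stem and progenitor genes had 7 of 8 (91.9 and 95.5 TPM), and endothelial genes 8 of 8 (219 and 226 TPM). The hepatocyte list, which marks the fetal liver where definitive red cells form, had 3 of 8 and summed levels of 15.5 and 9.76 TPM. Its defining genes Afp and Alb had 3.87 and 1.16 TPM in replicate 1, with 2.15 and 0.67 TPM in replicate 2. No marker of these lists was at 0 in both libraries. Few genes made up most of some sums. Pf4 had a mean of 43.6 TPM in the platelet list. In the progenitor list Cd34 had 41.6 and Kit 23.7 TPM, while Flt3 had 0.27 TPM. The counts and sums alone do not identify the cells. The part of such cells in the members' levels was not tested.

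The transcript tables held 27 annotated transcripts of the 7 members. Klf1 and Epor had 1 transcript each, and the other 5 genes had between 3 and 7. The percent values are the deposited share of each transcript in its gene's abundance. Lengths in the tables equalled those in GENCODE M21 for 25 of the 27, and the single transcripts of Klf1 and Epor differed.

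**Figure D3:**
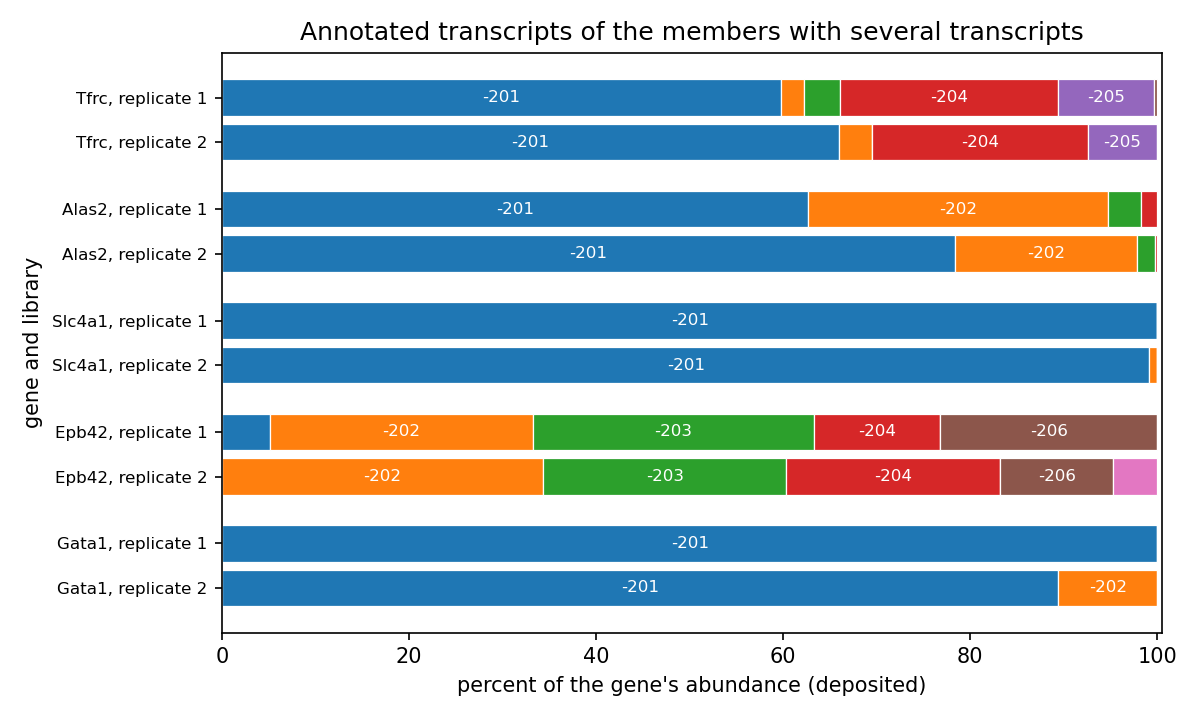
Deposited percent of each gene's abundance held by each annotated transcript, for the 5 members with several transcripts, with replicate 1 above replicate 2. Segments are labelled by transcript number where they hold 6% or more. Alas2-201 holds 62.7% in replicate 1 and 78.4% in replicate 2, and Epb42 is spread over several transcripts.

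Alas2 was carried by 2 coding transcripts. Alas2-201 held 62.7% in replicate 1 and 78.4% in replicate 2, and Alas2-202 held 32.0% and 19.4%. In TPM, Alas2-201 had 16.6 and 20.1 and Alas2-202 had 8.50 and 4.97, and the deposited bounds of the libraries overlapped for each transcript. The coding transcripts differ inside the coding sequence, because exon 3 of Alas2-201 begins 45 bases before that of Alas2-202. That stretch, 15 codons long, is the only internal difference of their exons.
Alas2 exon 3 start (chrX:150552959-150553003, plus strand): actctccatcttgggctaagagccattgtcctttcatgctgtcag
Alas2-201 also starts 84 bases farther upstream, and the first base of Alas2-202 is the first base of the Alas2 stretch with the iron-responsive pattern printed above. Transcripts with that pattern made up 94.7% of Alas2 in replicate 1 and 97.8% in replicate 2.

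Tfrc was led by its full-length coding transcript Tfrc-201, with 59.8% in replicate 1 and 65.9% in replicate 2. Tfrc-204, annotated as a retained intron, held 23.3% and 23.1%, and it shares the 3′ end with all 4 iron-responsive matches. Transcripts with the pattern therefore made up 83.1% and 89.0% of the TPM of Tfrc, which corrects for length. By expected counts, Tfrc-201 and Tfrc-204 had 2270 and 633 of the 2980 in replicate 1. In replicate 2 they had 2621 and 657 of the 3358. Tfrc-205, of 571 bases and without the pattern, held 10.3% and 7.46% on 38.6 and 29.2 counts. Coding transcripts held 66.0% of Tfrc in replicate 1 and 69.5% in replicate 2.

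Slc4a1 was almost wholly Slc4a1-201, a transcript of 20 exons, at 100% in replicate 1 and 99.1% in replicate 2. Its deposited bounds, 14.2 to 15.8 TPM in replicate 1 and 17.9 to 19.7 TPM in replicate 2, did not overlap. Gata1-201, which starts at the RefSeq start of Gata1, held 100% and 89.4%. Gata1-202, which starts 10161 bases upstream, was given 0 expected counts in replicate 1 against 1.54 in replicate 2, too few to call it present. By the posterior mean estimate these leading shares were lower, at 90.9% for Slc4a1-201 and 74.3% for Gata1-201 over both libraries.

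By the deposited percent Epb42 had no dominant transcript. Coding transcripts held 33.2% in replicate 1 and 34.3% in replicate 2, and processed transcripts without a coding sequence held the rest. The leading transcript was the noncoding Epb42-203 in replicate 1, at 30.01%, and the coding Epb42-202 in replicate 2, at 34.3%. By the posterior mean estimate the leader was Epb42-203 in replicate 1, at 23.8%, and the noncoding Epb42-204 in replicate 2, at 25.5% against 25.1% for Epb42-202. It was the only member of the 5 whose leading transcript differed between the libraries, against 9.79% of the 10344 genes with 2 or more transcripts that averaged 1 TPM or more. With 124 and 139 counts over 7 transcripts, the deposited bounds of Epb42-202 ran from 0.210 to 1.07 TPM in replicate 1 and from 0.459 to 1.31 TPM in replicate 2. The shares are of TPM, which corrects for length, and Epb42-204, of 366 bases, had only 1.86 and 3.70 expected counts. By expected counts Epb42-202 was the highest transcript in both libraries, with 58.2 in replicate 1 and 83.5 in replicate 2.

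The members were also compared between the pools. With 1 library for each pool no p-value can be given, and ratios are replicate 1 over replicate 2 on the log2(TPM + 1) scale, which understates differences of low genes. None of the 7 members was over 2-fold apart, against 1.43% of all genes averaging 1 TPM or more. At so low a share, a count of 0 does not set the members apart from other genes. Of the 7, 6 were lower in replicate 1, against 58.5% of all genes, and by CPM scaled with TMM factors 6 of 7, against 50.3%. The members had a median log2 ratio of -0.13, against -0.03 over all genes.

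**Figure D4:**
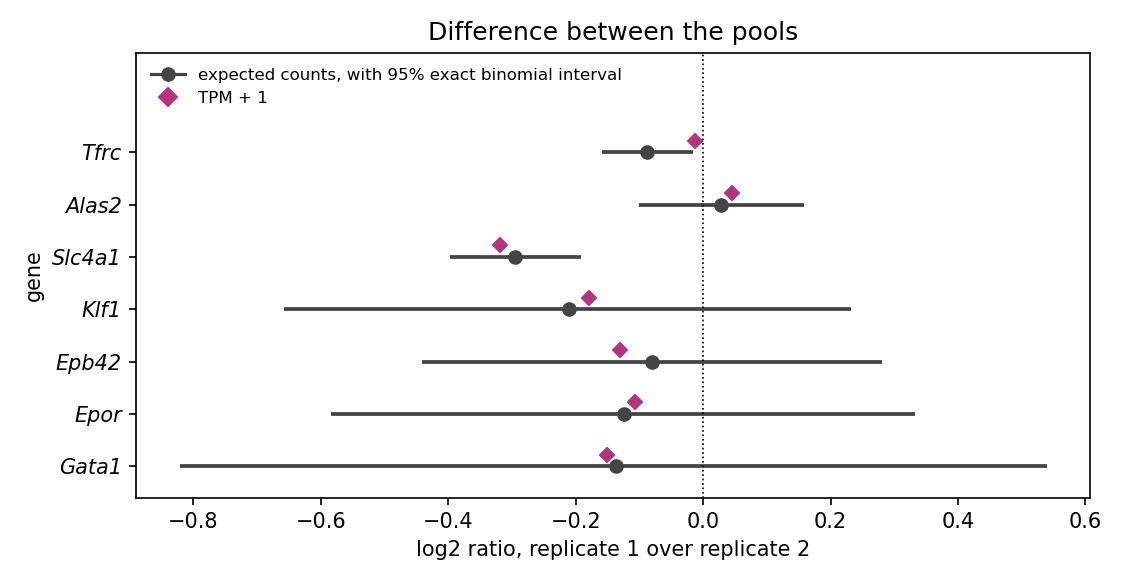
Log2 ratio of replicate 1 over replicate 2 for each member. Circles are expected counts scaled by library totals with 95% exact binomial intervals (counting error only), and diamonds are TPM with 1 added. The interval of Slc4a1 runs from -0.40 to -0.19, and those of Klf1, Epb42, Epor and Gata1 are wide and hold 0.

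Slc4a1 differed most, with a log2 ratio of -0.32. By counts its log2 ratio was -0.29, with an exact binomial interval of -0.40 to -0.19. Its deposited TPM bounds, 15.0 to 18.5 in replicate 1 and 18.9 to 22.4 in replicate 2, did not overlap, which made it 1 of 7 members, against 14.3% of all genes. The share among members is thus that of all genes, and by the deposited FPKM bounds no member was apart, against 13.2% of all genes. Among the 5997 genes with a mean of 10 to 50 TPM, the log2 TPM ratio had an SD of 0.19.

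Tfrc had a log2 TPM ratio of -0.01 and a log2 count ratio of -0.09 (-0.16 to -0.02). Its mean effective length differed between the libraries, at 3760 bases in replicate 1 and 4047 in replicate 2. Alas2 was the only member higher in replicate 1, with a log2 TPM ratio of 0.05 and a log2 count ratio of 0.03 (-0.10 to 0.16). The 4 lower members had log2 TPM ratios between -0.18 and -0.11, and each count interval held 0. Among the genes with a mean of 1 to 5 TPM, the log2 ratio had an SD of 0.53, larger than the ratios of these 4.

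The other lists are given by the same count, without a test of any list against the members. Red cell membrane and skeleton genes were lower in replicate 1 for 9 of 14 that averaged 1 TPM or more, or 8 of 14 by the scaled CPM. Transcription factors and cofactors were lower for 4 of 11 (3 by CPM) and heme synthesis genes for 6 of 11 (3 by CPM). Erythropoietin signalling genes were lower for 5 of 8 on both scales, iron genes for 7 of 11 (2 by CPM) and globins for 2 of 7 on both. Late erythroid genes were lower for 7 of 11 on both scales. Among the markers, megakaryocyte and platelet genes were lower for 4 of 5 (3 by CPM), blood stem and progenitor genes for 4 of 7 on both and neural tube genes for 3 of 8 (2 by CPM). Endothelial genes were lower in replicate 1 for 6 of 8 on both scales and macrophage genes for 6 of 7 (5 by CPM), while the 3 hepatocyte genes that averaged 1 TPM or more were all higher. Whether cell content moved with the members was not tested.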

How the data were processed

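Total RNA of 10 ng, longer than 200 nucleotides, entered each of 2 libraries, per the labels. For each library the authors deposited 1 gene table and 1 transcript table, made from transcriptome alignments to mm10 with GENCODE M4, per the deposited read-me text. The sources used here do not name the program. Expected counts (estimated reads, not always whole), TPM and FPKM values and transcript percent values were used as deposited. The deposited TPM and FPKM bounds have no stated level and cover 1 library each. Names and coordinates (1-based, GRCm38) are from GENCODE M21, matched for 42462 of 43346 mouse genes, and totals leave out rows of spike-ins and rows named by a number.

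The members and gene lists were chosen with earlier results of these data known. Ratios add 1 to TPM, and the background is all genes averaging 1 TPM or more. Count ratios and CPM have exact binomial 95% intervals (scipy 1.17.1). Compared over 17627 genes, chi-square divided by its degrees of freedom was 7.36, so the libraries are not copies of each other. For alternatives, expected counts were rounded and scaled with edgeR 4.0.16 TMM factors or DESeq2 1.42.0 size factors. Named list genes are the 3 highest of each list, up to 2 under 1 TPM in both libraries, and stated partners of members, apart from a few that are not reported here. Rhag, Afp, Alb, Pf4, Cd34, Kit and Flt3 are named as markers, and Slc40a1 for its pattern match. With 2 libraries no gene can be ranked by likeness of pattern to a member. The labels do not name cultures or litters, and SDs measure the spread of these 2 pools. Scripts were tested on simulated counts with counting error only. That test does not cover the wider spread between these 2 libraries.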

Additional observations from a re-analysis of the deposited data

How the results depend on the processing

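Under TMM or DESeq2 scaling or the posterior mean estimate, 21 of 21 log2 ratios of single members kept their sign. The log2 ratio of Tfrc was -0.09 with DESeq2 size factors, against -0.01 by TPM. By the posterior mean TPM the median member stood at 3.40 rather than 3.02 TPM, Gata1 at 1.39 rather than 1.11 and Epb42 at 3.40 rather than 2.76, so that Epb42 then stood above Klf1. By deposited FPKM bounds 0 members and 13.2% of all genes were apart, against 1 member and 14.3% by TPM bounds. The median member was 2.77 TPM in replicate 1 alone and 3.27 TPM in replicate 2 alone. With a pseudocount of 0.1, 361 genes (2.29%) were over 2-fold apart, against 225 with 1 added. Scaled CPM gave 28 (0.178%) and no minimum TPM gave 381 (0.879%). The cause of these differences was not tested. No paired analysis was possible because there is only 1 group. Depth limits the 4 lower members, on 36 to 139 counts in a library.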

Other observations

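Late erythroid genes ranged from 0.08 to 1062 TPM in their means. Of 13, 10 reached 1 TPM in both libraries, with a median of 5.40 ± 0.431 TPM. The peroxide-removing enzyme Prdx2 (1062 ± 46.2 TPM) and the mitophagy receptor Bnip3l (351 ± 12.1 TPM), both also used by other cells, were highest, followed by Bpgm (53.0 ± 2.68 TPM), which makes the red cell regulator of oxygen release. Trim58, a ubiquitin ligase of late erythroblasts, stood at 0.34 TPM in replicate 1 and 0.37 in replicate 2. Car1, the carbonic anhydrase of adult red cells, was given 3 expected counts in replicate 1 against 0 in replicate 2. Hemgn, a Gata1 target of erythroblasts chosen after its values were seen, stood at 1.89 TPM in replicate 1 and 2.87 in replicate 2, on 85 and 134 counts. Its deposited TPM bounds did not overlap, as for 14.3% of all genes averaging 1 TPM or more. Of the late erythroid genes 3 had such bounds, 2 of them lower in replicate 1, while Prdx2 was higher.

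Embryonic and adult globin genes were both present, and the stage of the red cells they came from was not tested. Hbb-y stood at 5432 TPM in replicate 1 and 5298 in replicate 2, and Hba-x had 1086 and 1133 TPM. Hbb-bh1, the other embryonic beta-like gene of the list, had 398 and 409 TPM. The adult beta genes Hbb-bt (703 and 670.5 TPM) and Hbb-bs (362 and 311 TPM) were lower than Hbb-y in both libraries, while Hbb-bt was higher than Hbb-bh1. The adult alpha genes Hba-a1 (2132 and 1959 TPM) and Hba-a2 (4672 and 4322 TPM) were higher than embryonic Hba-x in both libraries. Each adult pair consists of near-identical copies, so their single levels are uncertain.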
